A study of Mus musculus with 6 samples.

Results

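Interleukins are secreted proteins through which cells, above all those of the immune system, signal to each other, and each acts through receptor chains on the surface of the receiving cell. The genes described here are the interleukins and interleukin receptors of the mouse, taken as the array features that carry exactly 1 gene symbol and whose symbol starts with Il followed by a digit. This rule gave 76 genes of the 19938 with 1 symbol on the array, with the brightest feature read for the 3 genes that had several. The symbols split into 36 with an r after the number, most of them receptor chains, and 40 without, most of them ligands. By what the proteins do, some symbols sit on the other side of this split or outside it, among them the 4 that follow. Il6st encodes gp130, a signalling receptor chain, and Il1rn encodes a secreted antagonist that occupies the IL-1 receptor. Il18bp encodes a secreted protein that binds IL-18, and Il1bos is a transcript opposite to Il1b. Il1r1, Il1rl1, Il2rg and Il11ra1 were not analysed here.

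RNA came from 3 samples of Axin2+/GFP+ cells and 3 samples of Axin2-/GFP- cells, with 1 array per sample. Both populations were taken at postnatal day 28 from the calvarial suture mesenchyme of the same kind of mice, of a mixed C57BL/6J, CD-1 and B6CBAF2 background, which carried the transgenes Axin2rtTA and TRE-H2BGFP. In these mice regulatory sequence of Axin2 drives the doxycycline-dependent activator rtTA, so that doxycycline, given from postnatal day 25 to 28 to the mice of both groups, loads a histone-GFP fusion into the nuclei of Axin2-expressing cells. Suture cells freed with 0.2% collagenase were sorted on GFP intensity, the positive gate being the cells with high GFP, with 6 to 8 mice pooled into a sample. The study's methods name no antibody that removed blood cells, and a histone-GFP label can outlast the expression that loaded it. The study compared the populations to ask whether genes known from skeletal stem cells of the marrow mark the Axin2-expressing cells. It also compared Gli1 and Wnt ligands between them. Interleukins were not the subject of these comparisons.

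Interleukin receptors fall into a few families. The common gamma chain pairs with private chains such as those for IL-2, IL-4, IL-7, IL-15 and IL-21 and is central to lymphocyte growth, and mouse B-cell precursors in marrow depend on the IL-7 receptor. Receptors for IL-6 and IL-11 share gp130, receptors for IL-1, IL-18 and IL-33 signal through a domain shared with Toll-like receptors, and the IL-17 receptors form a family of their own. In bone, IL-1, IL-6 and IL-17 are known for their effects on osteoclast formation and on stromal cells.

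For the genes with a large change, the promoter shows what sequence stands in front of the transcript. The bases just before the start site are given for Il7r and Il12a, the members that fell most, and for Il6 and Il22ra1, the members with the largest rises among those that passed the test. They are RefSeq windows of 250 bases on GRCm38.p6, 5′ to 3′ on the strand of the gene. Il7r lies at chr15:9529877-9530126 on the minus strand, Il12a, at the upstream of its 2 start sites, at chr3:68690394-68690643, Il6 at chr5:30012864-30013113 and Il22ra1 at chr4:135727909-135728158, these 3 on the plus strand. Capitals mark matches to the motifs searched.
Il7r: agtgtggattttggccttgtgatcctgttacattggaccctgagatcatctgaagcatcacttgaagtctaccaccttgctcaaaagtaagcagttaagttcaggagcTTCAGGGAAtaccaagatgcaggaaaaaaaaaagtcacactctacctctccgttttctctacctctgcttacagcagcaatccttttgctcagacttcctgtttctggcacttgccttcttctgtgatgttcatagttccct
Il12a: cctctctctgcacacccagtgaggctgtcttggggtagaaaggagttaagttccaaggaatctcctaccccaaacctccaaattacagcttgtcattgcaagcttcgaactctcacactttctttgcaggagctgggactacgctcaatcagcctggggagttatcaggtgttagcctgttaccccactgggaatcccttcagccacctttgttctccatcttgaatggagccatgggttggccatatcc
Il6: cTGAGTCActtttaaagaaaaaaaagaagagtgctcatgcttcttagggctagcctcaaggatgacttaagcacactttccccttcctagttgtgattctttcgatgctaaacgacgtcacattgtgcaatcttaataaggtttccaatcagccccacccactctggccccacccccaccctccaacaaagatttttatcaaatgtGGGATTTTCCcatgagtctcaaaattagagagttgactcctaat
Il22ra1: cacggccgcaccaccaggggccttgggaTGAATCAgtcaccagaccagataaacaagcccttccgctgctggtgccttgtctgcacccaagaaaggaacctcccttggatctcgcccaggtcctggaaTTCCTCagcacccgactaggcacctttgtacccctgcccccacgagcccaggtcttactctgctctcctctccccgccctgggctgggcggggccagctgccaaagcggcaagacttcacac

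The motifs were searched on both strands in all 32851 RefSeq promoter windows of this length, of which 71 belonged to 59 of the 76 members. The NF-κB consensus stood in 0.356% of all windows and, among the members, in front of Il6 and at 1 of 3 start sites of Il16. In Il6 its first base is 44 bases before the start site. The AP-1 motif TGANTCA, in 6.75% of all windows, stood in front of 14 members, among them Il6, Il16 and Il22ra1. The STAT motif TTCNNNGAA, in 7.02% of all windows, matched 9 members, among them Il7r, and the PU.1 motif GAGGAA, in 23.3% of all windows, matched 20, among them Il22ra1. TATAAA was found in front of 11 members and in 12.4% of all windows. The EBF consensus, in 0.779% of all windows, matched 0 members. Neither Il12a window held any of these letters. GAGGAA can share bases with the STAT and NF-κB motifs, and a match describes letters, not binding.

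Some facts of the arrays bear on every value below. The upper quartile of the log2 values ran from 3.72 to 3.76 in the Axin2+/GFP+ samples and from 3.97 to 3.999 in the Axin2-/GFP- samples, and the median log2 change over all genes was 0.14. As a measure of dim features, 1194 genes for olfactory and vomeronasal receptors of the nose had a median level of 1.80 in Axin2+/GFP+ cells and 1.46 in Axin2-/GFP- cells, with 95th percentiles of 2.999 in Axin2+/GFP+ and 2.73 in Axin2-/GFP- cells, the nasal receptor level of each group. Their median log2 change was 0.30 and 1069 of the 1194 lay above 0, so a small positive change of a dim gene is the common case on these arrays. Axin2 itself was read at a log2 level of 2.89, 2.54 and 3.07 in Axin2+/GFP+ cells, against 2.18, 2.27 and 2.38 in Axin2-/GFP- cells, with no overlap and a limma adjusted p of 0.0802, and its means of 2.83 in Axin2+/GFP+ and 2.28 in Axin2-/GFP- cells put it among the dim features of both populations. Its log2 change was 0.55, with leave-one-out values from 0.44 to 0.70, and it passed without Axin2+/GFP+ replicate 2 (0.70). Of the markers listed for other cell types, 12 of 12 B-lineage genes were lower in Axin2+/GFP+ cells. Their summed linear signal was 95.2 to 103.0 in Axin2+/GFP+ samples and 1771 to 2424 in Axin2-/GFP- samples, and Cd79a, Ebf1, Rag2, Blnk, Cd22 and Ms4a1 were not above the 95th percentile of the nasal receptor genes in Axin2+/GFP+ cells. Of 15 neutrophil-lineage genes 11 were higher and 0 lower, with sums of 21955 to 23469 in Axin2+/GFP+ samples and 3214 to 10170 in Axin2-/GFP- samples. Of the mesenchyme and bone genes, 4 of 10 were higher and 0 lower (sums of 2486 to 3495 in Axin2+/GFP+ and 743 to 1026 in Axin2-/GFP- samples), although Sp7 and Pdgfra were not above that level in either population. Since these are bulk samples, fewer cells of a type and less RNA per cell cannot be told apart.

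Of the 76 genes, 10 were lower in Axin2+/GFP+ cells, 3 were higher and 63 did not pass an adjusted p of 0.05 in limma. Over all genes 11.4% were lower and 4.64% higher, beside 13.2% and 3.95% of the members, so the family as a whole stood near the background in both directions. Among the 36 receptor-named genes 7 were lower (19.4%) and 1 higher, and among the 40 ligand-named genes 3 were lower (7.5%) and 2 higher. Moved to their biochemical role, with gp130 among the receptors, 8 of the 10 genes that fell encode receptor chains. Of the 43 members not above the nasal receptor level in either population, 0 were lower. Above it in at least 1 population, 7 of 20 receptor-named (35.0%) and 3 of 13 ligand-named genes (23.1%) were lower, beside 21.3% of all such genes. A gene that fell can enter this set through its Axin2-/GFP- mean alone, as Il12a and Il2rb did. The split by level therefore cannot show whether falls depend on brightness. The groups did not overlap for 11 members that were lower and 21 that were higher, against 17.8% and 23.1% of all genes. Of those 21, 15 were not above the nasal receptor level in either population. Among the 1194 nasal receptor genes 377 did not overlap in the same direction. Lack of overlap fixes the exact two-sided permutation test at p = 0.1, the smallest that 3 samples against 3 allow. The median log2 change was 0.042 for the receptor-named, 0.28 for the ligand-named and 0.21 for all members. Signal depends on the probe, so members were not ranked against each other by level. The same limit holds for their place against the nasal receptor level.

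**Figure D1:**
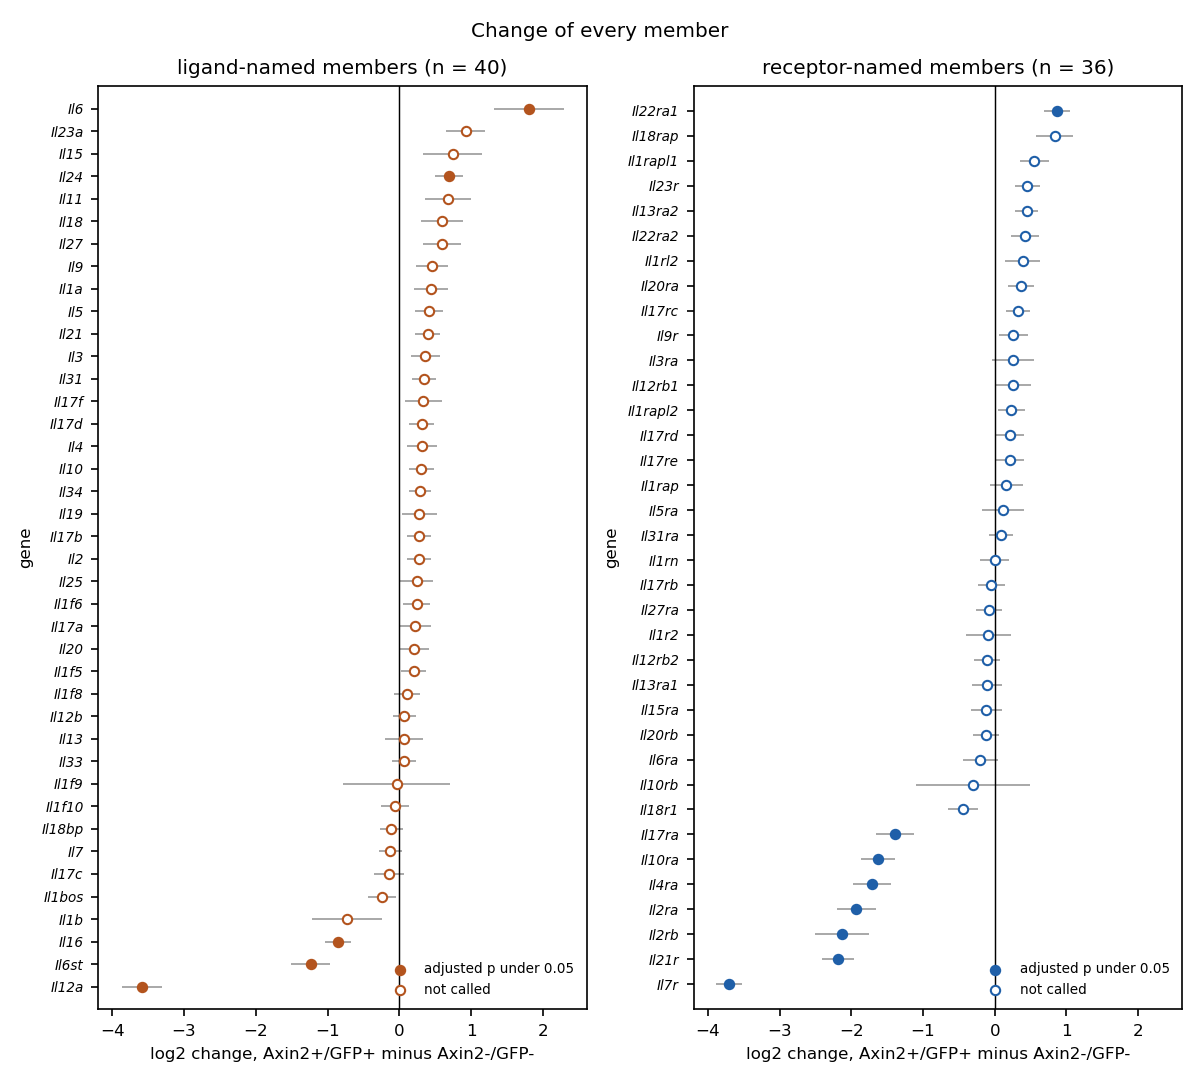
Log2 change, Axin2+/GFP+ minus Axin2-/GFP-, on the horizontal axis for each of the 40 ligand-named (left) and 36 receptor-named (right) genes, with whiskers of 1 standard error (SE) from limma and filled points where the adjusted p was under 0.05. Of the receptor-named genes 7 lie far below 0, from -1.39 for Il17ra to -3.71 for Il7r, while most ligand-named genes lie just above 0.

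Il7r and Il12a fell most among the members, and their order depended on the setting: Il12a stood at -3.26 and Il7r at -3.25 after cyclic loess, and at -3.87 and -3.68 without Axin2+/GFP+ replicate 3. Il7r, the private chain of the IL-7 receptor, had log2 values of 3.72, 3.29 and 3.43 in Axin2+/GFP+ cells, against 7.05, 7.22 and 7.29 in Axin2-/GFP- cells. Every Axin2+/GFP+ sample was far below every Axin2-/GFP- sample. The log2 change was -3.71 (SE 0.18, limma adjusted p = 1.98e-05), a 13.1-fold lower signal. Il7, its ligand, was read at 1.53 ± 0.054 in Axin2+/GFP+ cells and 1.66 ± 0.061 in Axin2-/GFP- cells (SD, n = 3 each), among the dim features in both populations (log2 change -0.12, limma adjusted p = 0.582). Beside this fall, the B-lineage markers had a median log2 change of -4.40, and their part in it was not tested.

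Most other private chains of the common gamma chain family fell as well. Of 7 measured, 5 were lower, beside 11.4% of all genes and 21.3% of the genes above the nasal receptor level in either population, and 0 were higher. Their median log2 change was -1.93, beside 0.14 over all genes. Il21r, the receptor chain for IL-21, had 3.39, 3.12 and 3.16 in Axin2+/GFP+ cells, against 4.98, 5.75 and 5.49 in Axin2-/GFP- cells, which gave a log2 change of -2.18 (SE 0.22, limma adjusted p = 0.000654). The groups were well apart. Il2ra, the alpha chain CD25 of the IL-2 receptor, stood at 3.15, 2.86 and 3.19 in Axin2+/GFP+ cells and 4.59, 4.76 and 5.63 in Axin2-/GFP- cells (log2 change -1.93, limma adjusted p = 0.00288). Il2rb, the beta chain that IL-2 and IL-15 share, was read at 2.65, 2.53 and 2.94 in Axin2+/GFP+ cells, against 5.33, 5.31 and 3.86 in Axin2-/GFP- cells (log2 change -2.13, limma adjusted p = 0.00696). Here the third Axin2-/GFP- sample was well below its companions, yet still above every Axin2+/GFP+ sample. All 3 Axin2+/GFP+ values lay below the nasal receptor level of their group, and with these raised to that level Il2rb was 3.56-fold lower. Il4ra, which carries the signals of IL-4 and IL-13, had 3.01, 3.15 and 3.39 in Axin2+/GFP+ cells and 5.29, 5.08 and 4.30 in Axin2-/GFP- cells (log2 change -1.71, limma adjusted p = 0.00409). Il4ra and Il21r are neighbours on chromosome 7 of GRCm38 (chr7:125552271-125579474 and chr7:125603252-125634397), with 23777 bases between them.

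The chains of this family that did not pass were Il15ra and Il9r. Il15ra, which presents IL-15 to neighbouring cells, lay at 3.32 ± 0.11 in Axin2+/GFP+ cells and 3.44 ± 0.39 in Axin2-/GFP- cells (SD, n = 3 each; log2 change -0.12, limma adjusted p = 0.714), and its gene lies 11977 bases from Il2ra on chromosome 2. Il9r, the IL-9 receptor chain, had 3.34 ± 0.29 in Axin2+/GFP+ cells and 3.08 ± 0.16 in Axin2-/GFP- cells (SD, n = 3 each; log2 change 0.26, limma adjusted p = 0.376). Whether these chains differ from those that fell was not tested. Of 11 T and NK cell markers 1 was lower and 0 higher, with sums of 111 to 143 in Axin2+/GFP+ samples and 140.0 to 189 in Axin2-/GFP- samples, and Cd3d, Cd3g, Cd4, Trat1 and Klrb1c lay among the dim features in both populations. The calls of Il7r, Il21r, Il2ra, Il2rb and Il4ra held without any 1 of the 6 samples.

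**Figure D2:**
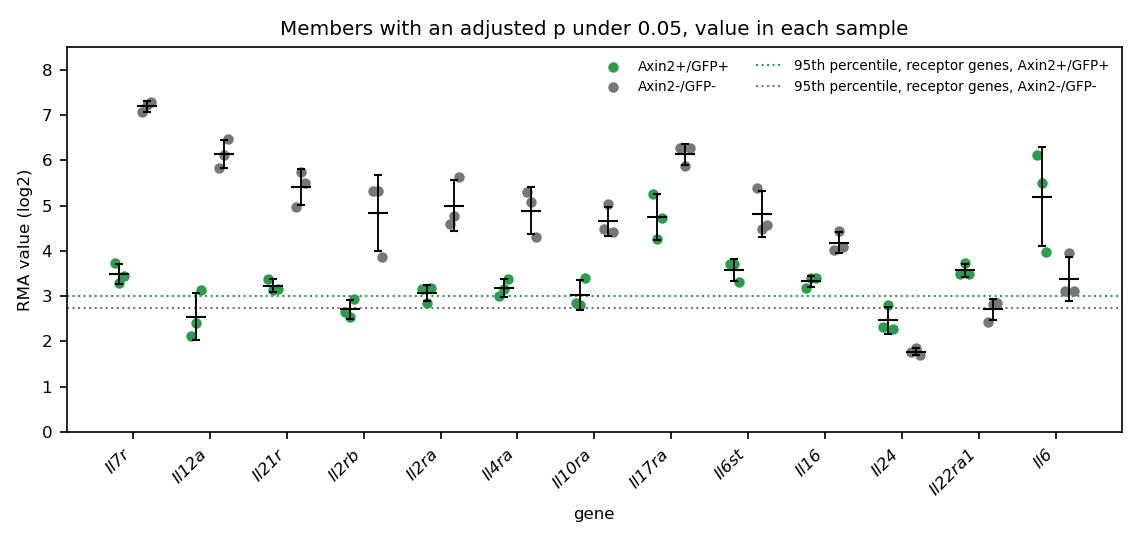
RMA values on the log2 scale (vertical axis) of the 13 genes with an adjusted p under 0.05, with Axin2+/GFP+ left of Axin2-/GFP- cells, points for the 3 samples, horizontal lines at means, error bars of 1 SD and dotted lines at the 95th percentile of the nasal receptor genes. The 10 genes that were lower in Axin2+/GFP+ cells show no overlap, and Il6 has an Axin2+/GFP+ sample at 3.98 next to an Axin2-/GFP- sample at 3.95.

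Il12a fell most of the ligand-named genes. It encodes the p35 subunit, which forms IL-12 with the product of Il12b. Its log2 values were 2.11, 2.41 and 3.13 in Axin2+/GFP+ cells, against 5.84, 6.11 and 6.46 in Axin2-/GFP- cells. All Axin2+/GFP+ samples were far below the Axin2-/GFP- samples, with a log2 change of -3.58 (SE 0.28, limma adjusted p = 0.000224). In Axin2+/GFP+ cells 2 of the 3 samples and the mean lay at or below the nasal receptor level, so that the size of its fall is uncertain. It was 12.0-fold as read, and 8.53-fold with those 2 samples raised to that level. Of the nasal receptor genes there, 13.8% were at least as bright. Of the 4 members that encode ligand subunits of the IL-12 and IL-23 family it was the 1 that fell. Ebi3, the partner of p35 in IL-35 and of p28 in IL-27, had 5.61, 4.57 and 4.78 in Axin2+/GFP+ cells and 4.26, 3.40 and 4.78 in Axin2-/GFP- cells (log2 change 0.84, limma adjusted p = 0.158), with overlap. Il12b and Il23a were singled out after their values were seen. Il12b, the p40 subunit shared by IL-12 and IL-23, had 2.47 ± 0.067 in Axin2+/GFP+ cells and 2.40 ± 0.078 in Axin2-/GFP- cells (SD, n = 3 each; log2 change 0.071, limma adjusted p = 0.759). Il23a, the p19 subunit of IL-23, stood at 2.70, 3.32 and 2.62 in Axin2+/GFP+ cells and 1.87, 2.44 and 1.56 in Axin2-/GFP- cells, and its log2 change of 0.92 (limma adjusted p = 0.0547) passed without Axin2-/GFP- replicate 2 (1.17). Neither Il12b nor Il23a had a mean above the nasal receptor level in either population. For Il23a, 6.20% of the nasal receptor genes in Axin2+/GFP+ cells and 20.6% in Axin2-/GFP- cells were at least as bright. Il27, the p28 subunit of IL-27, had a log2 change of 0.59 (limma adjusted p = 0.148).

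Receptor chains of other families were lower too. Il10ra, the ligand-binding chain for IL-10, was read at 2.85, 2.80 and 3.40 in Axin2+/GFP+ cells, against 4.49, 5.03 and 4.43 in Axin2-/GFP- cells, which gave a log2 change of -1.63 (SE 0.24, limma adjusted p = 0.00325). Il17ra, a chain shared by several IL-17 family receptors, had 5.25, 4.25 and 4.73 in Axin2+/GFP+ cells, against 6.27, 5.87 and 6.26 in Axin2-/GFP- cells (log2 change -1.39, limma adjusted p = 0.0101). Il6st, which encodes gp130, stood at 3.71, 3.72 and 3.30 in Axin2+/GFP+ cells, against 5.39, 4.49 and 4.56 in Axin2-/GFP- cells, which gave a log2 change of -1.24 (SE 0.27, limma adjusted p = 0.0165). In all 3 genes the groups were apart. The calls of Il17ra and Il6st ended after quantile normalization (-0.94 and -0.93) and after cyclic loess (-0.92 and -0.94). The other 4 IL-17 receptor chains, Il17rb, Il17rc, Il17rd and Il17re, had log2 changes of -0.045, 0.32, 0.22 and 0.21 and did not pass. Il10 itself, a cytokine that restrains inflammation, lay among the dim features with a log2 change of 0.31 (limma adjusted p = 0.244).

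Il16 was the remaining gene that fell. It encodes a precursor whose processed end attracts CD4+ cells. Its values were 3.18, 3.40 and 3.39 in Axin2+/GFP+ cells, against 4.01, 4.45 and 4.08 in Axin2-/GFP- cells, without overlap and with a log2 change of -0.85 (SE 0.18, limma adjusted p = 0.0167), 1.81-fold lower. The call ended without Axin2-/GFP- replicate 2 (-0.72) and after quantile normalization (-0.67).

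Il6 had the largest rise. IL-6 is made by stromal cells, macrophages and lymphocytes among others and signals through gp130. Il6 was read at 6.11, 5.49 and 3.98 in Axin2+/GFP+ cells, against 3.11, 3.95 and 3.10 in Axin2-/GFP- cells. The third Axin2+/GFP+ sample was level with the highest Axin2-/GFP- sample, and the other Axin2+/GFP+ samples were clearly above all Axin2-/GFP- samples. The log2 change was 1.81 (SE 0.49, limma adjusted p = 0.0405), a 3.50-fold higher signal. The call ended without Axin2+/GFP+ replicate 1 (1.35) or 2 (1.66), without Axin2-/GFP- replicate 1 (1.67), 2 (2.09) or 3 (1.67), and after median centring (1.70) or centring on the nasal receptor genes (1.49). Nor did Il6 pass the methods' t-test, before or after adjustment. Il6ra, the binding chain, had 4.98, 4.16 and 4.74 in Axin2+/GFP+ cells and 4.96, 4.58 and 4.95 in Axin2-/GFP- cells (log2 change -0.20, limma adjusted p = 0.560). The ligand of this system was thus higher, its signalling chain Il6st lower, and its binding chain did not pass. Il11, another gp130 ligand, had 2.13, 2.20 and 3.37 in Axin2+/GFP+ cells and 2.07, 1.92 and 1.69 in Axin2-/GFP- cells (log2 change 0.67, limma adjusted p = 0.176), with 1 Axin2+/GFP+ sample above the rest.

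The other rises were smaller. Il22ra1, a receptor chain for IL-22, IL-20 and IL-24 known from epithelia, had 3.49, 3.74 and 3.49 in Axin2+/GFP+ cells, against 2.44, 2.83 and 2.85 in Axin2-/GFP- cells. The groups were apart, with a log2 change of 0.87 (SE 0.19, limma adjusted p = 0.0165). Its Axin2-/GFP- mean lay below the nasal receptor level of that group. With values below that level raised to it, Il22ra1 was 1.70-fold higher. Its second feature gave a log2 change of 0.39, and the call ended without Axin2-/GFP- replicate 1 (0.73) and when centred on the nasal receptor genes (0.55). Il24, one of its ligands, stood at 2.31, 2.81 and 2.27 in Axin2+/GFP+ cells and 1.76, 1.86 and 1.69 in Axin2-/GFP- cells (log2 change 0.69, limma adjusted p = 0.0453). The Il24 values were dim, since 16.2% of the nasal receptor genes in Axin2+/GFP+ cells and 29.6% in Axin2-/GFP- cells were at least as bright, and 7.79% of them changed as much or more. The Il24 call ended without Axin2+/GFP+ replicate 1 (0.77) or 2 (0.52), without Axin2-/GFP- replicate 1 (0.69), 2 (0.73) or 3 (0.65), and under each of the 4 other scalings (from 0.37 to 0.58). Il24 lies in a cluster on chromosome 1 with Il20, Il19 and Il10, and none of those 3 passed.

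The IL-1 system held bright members that did not pass. Il1b, an inflammatory cytokine of neutrophils and macrophages, had 7.42, 5.92 and 5.29 in Axin2+/GFP+ cells, against 7.44, 6.61 and 6.76 in Axin2-/GFP- cells. The first Axin2+/GFP+ sample matched the highest Axin2-/GFP- sample, and the other Axin2+/GFP+ samples lay below all Axin2-/GFP- samples. The log2 change was -0.72 (SE 0.49, limma adjusted p = 0.312), and without Axin2+/GFP+ replicate 1 it was -1.33 and passed (limma adjusted p = 0.0288, against up to 0.910 over the alternatives). Il1r2, the decoy receptor that binds IL-1 without signalling, had 6.14, 6.35 and 5.61 in Axin2+/GFP+ cells and 6.72, 5.54 and 6.10 in Axin2-/GFP- cells (log2 change -0.089, limma adjusted p = 0.850). Il1rn, the receptor antagonist, had 4.57 ± 0.12 in Axin2+/GFP+ cells and 4.57 ± 0.31 in Axin2-/GFP- cells (SD, n = 3 each), which gave a log2 change of -0.00282 with a standard error of 0.20. Both overlapped between the populations. Il1a and Il1rap, the other IL-1 ligand and the co-receptor, had log2 changes of 0.44 and 0.16 and did not pass. Beside these values, 11 of the 15 neutrophil-lineage markers were higher in Axin2+/GFP+ cells.

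**Figure D3:**
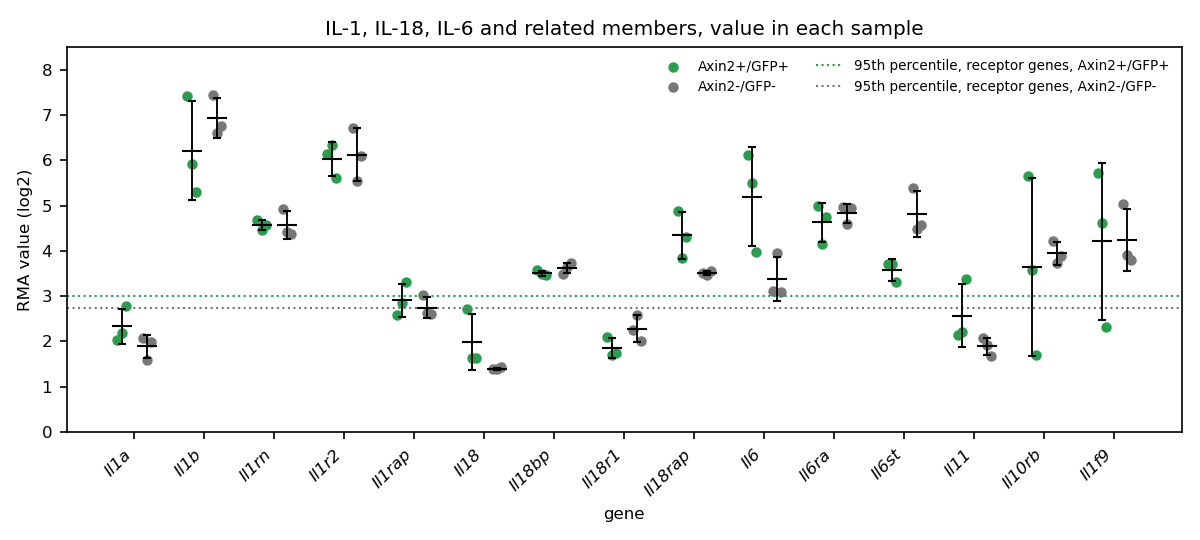
RMA values on the log2 scale (vertical axis) of members of the IL-1, IL-18 and IL-6 systems and of Il10rb and Il1f9, with Axin2+/GFP+ left of Axin2-/GFP- cells, points for the 3 samples, horizontal lines at means, error bars of 1 SD and dotted lines at the 95th percentile of the nasal receptor genes. Il1b, Il6, Il10rb and Il1f9 spread widely among the Axin2+/GFP+ samples, and Il1r2 and Il1rn overlap between the populations.

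In the IL-18 and IL-33 branch, Il18rap, the accessory chain of the IL-18 receptor, had 4.88, 3.85 and 4.30 in Axin2+/GFP+ cells, against 3.50, 3.46 and 3.56 in Axin2-/GFP- cells. All Axin2+/GFP+ samples were above the Axin2-/GFP- samples. The log2 change of 0.84 (SE 0.25, limma adjusted p = 0.0570) did not pass. Il18rap passed under 6 of the 18 alternatives, among them without Axin2+/GFP+ replicate 2 (1.08), after quantile normalization (1.08) and after cyclic loess (1.06). Il18r1, the binding chain, whose gene lies 14507 bases from Il18rap on chromosome 1, had a log2 change of -0.44 (limma adjusted p = 0.175), and -0.76 with a call when centred on the nasal receptor genes. Il18 stood at 2.71, 1.63 and 1.64 in Axin2+/GFP+ cells and 1.38, 1.39 and 1.43 in Axin2-/GFP- cells (log2 change 0.60, limma adjusted p = 0.179). The binding protein Il18bp and the alarmin Il33 had log2 changes of -0.11 and 0.061 and did not pass.

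Many of the remaining ligands were dim. Of the 76 members, 43 were not above the 95th percentile of the nasal receptor genes in either population, among them Il2, Il3, Il4, Il5, Il7, Il9, Il10, Il15, Il21, Il31 and Il33, and their median log2 change of 0.28 stood beside 0.30 for the nasal receptor genes. The type 2 and IL-3 cytokines of chromosome 11, Il3, Il4, Il5 and Il13, had log2 changes of 0.36, 0.31, 0.42 and 0.067, and 0 of the 4 passed in limma, with 0 at an unadjusted p under 0.05. Among the chains that receive these signals Il4ra fell, as given above, while Il3ra, Il5ra, Il13ra1 and Il13ra2 had log2 changes of 0.25, 0.12, -0.11 and 0.45 and did not pass. Il15, a growth factor of NK cells, had 2.94, 2.06 and 3.80 in Axin2+/GFP+ cells and 2.47, 1.70 and 2.40 in Axin2-/GFP- cells (log2 change 0.75, limma adjusted p = 0.227). Il34, a ligand of the macrophage growth factor receptor, stood at 3.37, 3.46 and 3.41 in Axin2+/GFP+ cells and 3.22, 3.09 and 3.06 in Axin2-/GFP- cells (log2 change 0.29, limma adjusted p = 0.226). The groups of Il34 were apart, but 52.8% of the nasal receptor genes changed as much or more, and the log2 change was -0.031 when centred on them. Of the 6 IL-17 family ligands 0 passed, with log2 changes from -0.15 to 0.33.

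**Figure D4:**
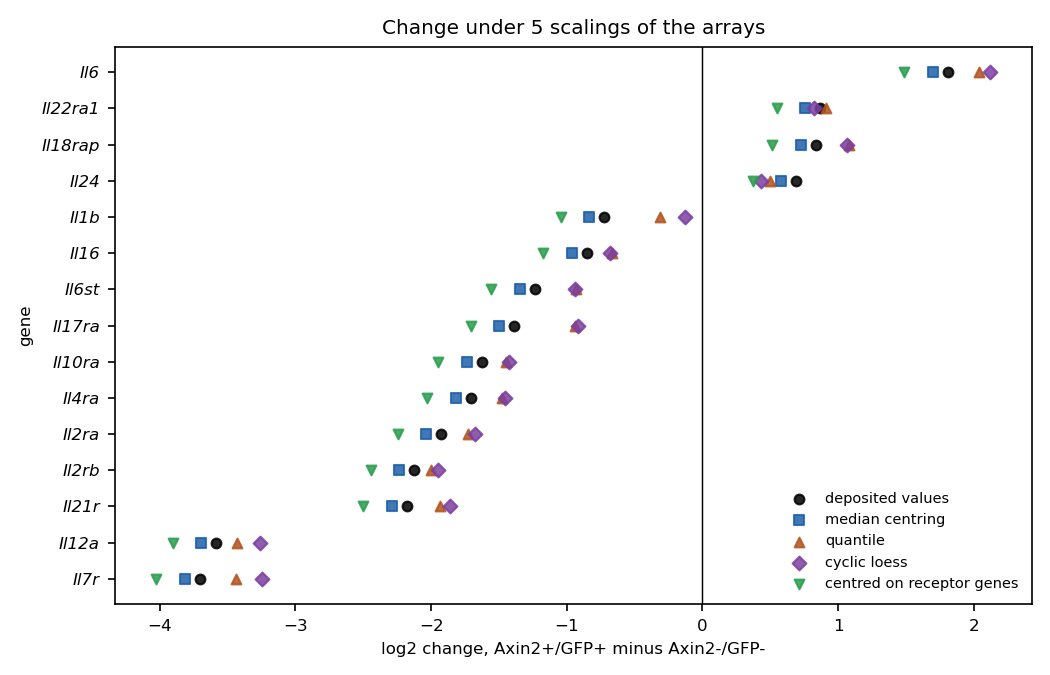
Log2 change, Axin2+/GFP+ minus Axin2-/GFP-, for the 13 genes called and for Il1b and Il18rap under 5 scalings of the arrays. No gene shown changes sign, Il7r lies between -4.03 and -3.25 and Il1b between -1.04 and -0.13.

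Genes of interleukin signalling were read beside the members. Of 20 measured JAK and STAT genes and their inhibitors, 4 were lower and 0 higher, beside 11.4% and 4.64% of all genes. Of all genes above the nasal receptor level 21.3% were lower. They were Jak1 (log2 change -0.99, limma adjusted p = 0.0256), Stat6 (log2 change -1.15, limma adjusted p = 0.0272), Stat2 (log2 change -0.85, limma adjusted p = 0.0281) and Pias1 (log2 change -1.79, limma adjusted p = 0.0399). The count of 4 was 2 without Axin2+/GFP+ replicate 2, 0 without Axin2-/GFP- replicate 1 or 2 and 1 without replicate 3 of that group, and 0 after quantile normalization or cyclic loess. Another list held 20 measured genes of signalling by the IL-1, IL-18, IL-33 and IL-17 receptors. It included Pycard, Nlrp3 and Casp1, which act before these receptors, in the release of IL-1β. Of the 20 genes, 7 were lower and 0 higher, set beside the same shares. Traf6, the ubiquitin ligase that links these receptors to NF-κB, had 2.80, 2.92 and 3.52 in Axin2+/GFP+ cells, against 4.80, 4.40 and 4.54 in Axin2-/GFP- cells (log2 change -1.50, limma adjusted p = 0.00376). Pycard, an inflammasome adaptor that acts in the release of IL-1β, had 3.35, 2.49 and 3.14 in Axin2+/GFP+ cells and 4.92, 4.40 and 4.36 in Axin2-/GFP- cells (log2 change -1.57, limma adjusted p = 0.00558). Neither gene showed overlap. The count of 7 was 3 without Axin2-/GFP- replicate 1, 2 or 3. The split itself depended on the scaling, with 2 lower and 3 higher after quantile normalization and 3 lower and 2 higher after cyclic loess.

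Of 13 measured receptor chains and partners whose names do not start with Il, 1 was higher and 1 lower (7.69% each). Over all genes 4.64% were higher and 11.4% lower, so this list stood near the background. Cntfr, the binding chain of the ciliary neurotrophic factor receptor, which signals with gp130, had 3.64, 4.38 and 3.30 in Axin2+/GFP+ cells, against 2.64, 2.21 and 2.58 in Axin2-/GFP- cells. Its log2 change was 1.30 (SE 0.28, limma adjusted p = 0.0170), and the call ended without Axin2-/GFP- replicate 2 (1.16). All 3 Axin2-/GFP- values lay below the nasal receptor level, and with these raised to it Cntfr was 2.06-fold higher. Clcf1, a ligand of that receptor, had 3.41, 3.73 and 3.38 in Axin2+/GFP+ cells and 5.07, 4.40 and 4.93 in Axin2-/GFP- cells (log2 change -1.29, limma adjusted p = 0.00615). Neither gene showed overlap between the groups.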

How the data were processed

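RNA of 3 Axin2+/GFP+ and 3 Axin2-/GFP- samples was hybridised to 1 array each. The values are those the authors deposited, on a log2 scale, for each feature. RMA and R 3.2.1 are named in the submitters' processing notes, and no further step is stated in the sources read. The platform's table gave each feature its symbol, and the 76 members were found in RefSeq by gene identifier. Of the features, 3 that share an interleukin symbol with another gene were left out. Tests used limma 3.58.1 in R 4.3.3 on Axin2+/GFP+ minus Axin2-/GFP- values of all 19938 genes, with Benjamini-Hochberg adjustment over them, and were tried on simulated data first. A p-value here covers the spread between pools of mice, and 3 arrays per group limit its precision. Genes were named if they passed, belonged to a listed ligand and receptor system, or lay above the nasal receptor level, with up to 6 genes for each pathway list. The members and lists were chosen with earlier results of these data known. Alternatives covered other tests (a trend, array weights, a replicate block, the methods' t-test), scalings, feature choices and filters, and leaving out each sample. Those for the pathway lists, Axin2 and Il23a were chosen after seeing the data.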

Additional observations from a re-analysis of the deposited data

How the results depend on the processing

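Il7r, Il12a and Il21r kept their direction and their call under all 18 alternatives, and Il2rb, Il2ra, Il4ra and Il10ra under all but the methods' t-test with adjustment. The counts as reported were 3 for members higher, 10 for members lower, 2 for ligand-named higher, 3 for ligand-named lower, 1 for receptor-named higher, 7 for receptor-named lower, 1 for chains outside the Il names higher, 1 for chains outside the Il names lower, 4 for JAK-STAT genes lower, 0 for IL-1 to IL-17 signalling genes higher and 7 for IL-1 to IL-17 signalling genes lower. With limma with a trend they were 5 for members higher and 2 for receptor-named higher. With the methods' t-test after Benjamini-Hochberg adjustment they were 0 for members higher, 3 for members lower, 0 for ligand-named higher, 1 for ligand-named lower, 0 for receptor-named higher, 2 for receptor-named lower, 0 for chains outside the Il names higher, 0 for chains outside the Il names lower, 0 for JAK-STAT genes lower and 0 for IL-1 to IL-17 signalling genes lower. With median centring they were 1 for members higher, 0 for ligand-named higher and 2 for chains outside the Il names lower. With centring on the nasal receptor genes they were 0 for members higher, 0 for ligand-named higher, 0 for receptor-named higher, 3 for chains outside the Il names lower and 10 for JAK-STAT genes lower. With the methods' t-test at their unadjusted threshold they were 9 for members higher, 4 for ligand-named higher, 5 for receptor-named higher and 2 for chains outside the Il names lower. With quantile normalization they were 7 for members lower, 6 for receptor-named lower, 1 for ligand-named higher and 1 for ligand-named lower. This scaling also gave 2 for receptor-named higher, 2 for chains outside the Il names higher and 0 for JAK-STAT genes lower. For IL-1 to IL-17 signalling genes it gave 3 higher and 2 lower. With cyclic loess they were 8 for members lower, 6 for receptor-named lower, 1 for ligand-named higher and 2 for ligand-named lower. This scaling also gave 2 for receptor-named higher, 2 for chains outside the Il names higher and 0 for JAK-STAT genes lower. For IL-1 to IL-17 signalling genes it gave 2 higher and 3 lower. Smaller shifts of a count in the other settings are not all listed. With the filter on dim features they were 1 for ligand-named higher and 2 for receptor-named higher. With array weights they were 2 for receptor-named higher. Leaving out 1 sample at a time gave 0 to 3 for members higher, 9 to 11 for members lower, 0 to 2 for ligand-named higher, 2 to 4 for ligand-named lower, 0 to 3 for receptor-named higher, 0 to 1 for chains outside the Il names higher, 0 to 4 for JAK-STAT genes lower and 3 to 7 for IL-1 to IL-17 signalling genes lower. Changes of sign were found for members without a call, and the cause of these and of the shifts in counts was not tested. With quantile normalization the log2 change was 0.22 for Il6ra, 0.24 for Il20rb, 0.043 for Il18bp, 0.35 for Il1r2, 0.24 for Il1f9, 0.41 for Il1rn, -0.11 for Il33 and -0.093 for Il5ra. With cyclic loess the log2 change was 0.19 for Il6ra, 0.19 for Il20rb, 0.45 for Il1r2, 0.26 for Il1f9, 0.36 for Il1rn, -0.17 for Il33, -0.14 for Il5ra and -0.031 for Il17re. With averaging a gene's features the log2 change was 0.0096 for Il20rb. With median centring the log2 change was -0.048 for Il33 and -0.042 for Il13. With centring on the nasal receptor genes the log2 change was -0.26 for Il33, -0.25 for Il13, -0.20 for Il5ra, -0.16 for Il1rap, -0.11 for Il17re, -0.10 for Il17rd, -0.098 for Il17a, -0.077 for Il25, -0.064 for Il3ra, -0.060 for Il9r, -0.042 for Il17b, -0.031 for Il34, -0.014 for Il10 and -0.0088 for Il4. Leaving out 1 sample gave log2 changes from -1.30 to 0.66 for Il10rb, -0.38 to 0.032 for Il6ra, -0.28 to 0.097 for Il15ra, -0.21 to 0.066 for Il13ra1, -0.38 to 0.21 for Il1r2, -0.19 to 0.035 for Il27ra, -0.19 to 0.030 for Il17rb, -0.79 to 0.91 for Il1f9, -0.10 to 0.18 for Il1rn, -0.0048 to 0.11 for Il33, -0.14 to 0.28 for Il13, -0.16 to 0.35 for Il5ra, -0.038 to 0.33 for Il1rap and -0.031 to 0.58 for Il3ra. Deviations of samples with the same replicate number in the 2 populations had correlations of 0.031, 0.011 and 0.053. Those with different numbers ran from -0.050 to 0.017. Such values cannot show whether same-numbered samples came from the same mice. With the number as a replicate block the counts were again 3 higher and 10 lower, and Il24 did not pass (0.69, limma adjusted p = 0.0544) while Il23a did. Scaling set the median log2 change of all genes at 0.14 as deposited, 0.033 after median centring, -0.18 after centring on the nasal receptor genes, 0.059 after quantile normalization and 0.011 after cyclic loess. Dim features limit what the arrays resolve, since 43 of the 76 members were not above the nasal receptor level.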

Other observations

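Some members spread widely within the Axin2+/GFP+ samples. An SD above 1 on the log2 scale was found for 4 members in Axin2+/GFP+ cells, Il10rb, Il1f9, Il1b and Il6, and for 0 in Axin2-/GFP- cells, against 1.39% of all genes in Axin2+/GFP+ and 0.311% in Axin2-/GFP- cells. The median SD of the members was 0.23 in Axin2+/GFP+ and 0.21 in Axin2-/GFP- cells, and that of all genes 0.26 in Axin2+/GFP+ and 0.19 in Axin2-/GFP- cells. Il10rb, a chain shared by the IL-10 and IL-22 receptors, had 5.65, 3.57 and 1.71 in Axin2+/GFP+ cells, against 4.22, 3.72 and 3.89 in Axin2-/GFP- cells. Il1f9, which encodes IL-36γ, had 5.71, 4.61 and 2.32 in Axin2+/GFP+ cells, against 5.03, 3.91 and 3.80 in Axin2-/GFP- cells. In all 4 genes Axin2+/GFP+ replicate 1 was the highest and replicate 3 the lowest of its group. Axin2-/GFP- replicate 1 was likewise the highest of its group for Il10rb, Il1f9 and Il1b, while for Il6 replicate 2 was. The summed linear signal of mast cell, basophil and eosinophil markers was 1404, 1293 and 843 in the Axin2+/GFP+ samples, against 453, 192 and 145 in the Axin2-/GFP- samples, with 4 of 10 higher and 0 lower. The median log2 change of this list was 0.20. Kit, Fcer1a, Ms4a2 and Tpsb2 were not above the nasal receptor level in Axin2+/GFP+ cells, nor Fcer1a and Ms4a2 in Axin2-/GFP- cells. The neutrophil-lineage sums were 23469, 21955 and 23312 in the Axin2+/GFP+ samples, against 10170, 4455 and 3214 in the Axin2-/GFP- samples. Of 10 macrophage and monocyte markers 2 were lower and 0 higher, of 8 endothelial markers 1 was lower and 0 higher, and of 5 erythroid markers 1 was higher and 2 were lower. The part of these cells in the spread was not tested.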
